A study of Mus musculus with 23 samples.

Results

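The immediate early and NF-kB genes followed here were chosen by name, as a list of 38 mouse genes. The list holds 7 AP-1 subunits and partners, 3 EGR factors, 3 NR4A nuclear receptors, 9 other immediate early regulators, 4 dual-specificity phosphatases, 4 genes of RNA decay and growth restraint, 4 NF-kB subunits and 4 NF-kB feedback genes. The deposited table of 19945 genes held 36 of the 38. Btg1 and Nfkbiz were not analysed here. All 36 passed the filter on low values (10 or more normalized counts in 5 or more of the 23 libraries), as did 15268 genes in all.

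The study followed cultured mouse cells labelled ILC2s (group 2 innate lymphoid cells, tissue lymphocytes that answer the alarm cytokine IL-33) after transfer into mice with a stroke made by middle cerebral artery occlusion (MCAO). The groups were brain on day 5 (6 libraries), blood on day 1 (6 libraries), blood on day 5 (6 libraries) and the culture before transfer, here the culture baseline (5 libraries), and both sequencing batches named in the labels hold all 4 groups. Every library carries the genotype label B6.Cg-Tg(CAG-GFP)Smoc, a line whose CAG promoter drives GFP broadly, and the donors were transgenic and wild-type males aged 8 to 10 weeks. All groups share the same history up to the culture. Donors received IL-33 at intervals of 2 days for 7 days. Bone marrow and spleen cells with CD25 and without lineage markers were grown for 14 days with IL-33 and 3 growth cytokines (IL-15, IL-7 and IL-2). For the blood and brain groups, cells sorted as CD45+Lin-ST2+KLRG1+CD127+ were then injected into a vein 6 h after MCAO. The sources used here do not say how cells were recovered from blood and brain, whether the baseline passed the last sort, or whether each replicate is a separate animal, so p-values measure only the spread between these libraries. A group without MCAO is not among the samples used here.

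Immediate early genes are transcribed within minutes of a stimulus, before any new protein is made, when MAP kinases activate transcription factors already present on their promoters (SRF with its ELK partners at CArG boxes, CREB at cAMP response elements). Their products include AP-1 and EGR factors, which pass the signal on to later genes, and phosphatases and RNA-binding proteins, which end it. NF-kB dimers wait in the cytoplasm bound to IkB proteins until a receptor such as the IL-33 receptor ST2 triggers IkB destruction, and among the first genes that NF-kB induces are its own inhibitors. In lymphocytes these genes are known as markers of recent stimulation, and they are also known to respond to tissue dissociation and sorting.

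Read depth ran between 11.6 and 58.1 M reads per library, 11.6 to 16.9 M in batch 1 and 27.8 to 58.1 M in batch 2. No library pair agreed within counting noise, although culture baseline replicates 1 to 3 and brain replicates 1 and 3 were closer to each other (chi-square per degree of freedom 4.19 to 12.5) than any other pair of a group (at least 45.0). The label ILC2 was checked against 10 markers. In brain libraries Gata3, the ILC2 lineage factor, had at most 22.2 normalized counts, Klrg1 at most 23.4 and Il2ra (CD25) at most 15.5, whereas the lowest baseline libraries had 139, 15664 and 13451. Of the 9 ILC2 markers tested, 6 fell (66.7%) and 3 rose (33.3%) in brain against the baseline, among 11.7% lower and 37.5% higher of all genes. Rora, a factor of ILC2 development, rose to between 793 and 1235 in brain, against 14.9 to 153 in the baseline, a difference of 4.64 ± 0.76. Il7r (CD127) and Il1rl1, which encodes ST2, rose by 2.73 ± 0.75 and 4.58 ± 1.19. Il1rl1 was at 0 in 4 of 5 baseline libraries, and Il5 did not exceed 13.8 in any library. In blood, Il2ra was below the baseline, at 40.2 to 335 on day 1 and 74.8 to 176 on day 5. Thy1 was also below it, at 430 to 2490 and 286 to 3304, and Gata3 above it, at 591 to 2357 and 1270 to 1895. Of the 9 markers, 4 rose and 3 fell on each blood day, among 18.1% higher and 14.0% lower of all genes on day 1 and 19.6% and 11.4% on day 5. The baseline also held T cell signal: 8 T cell markers summed to 77958 to 285250 there. Their sums were 28220 to 50564 on blood day 1, 20226 to 34671 on blood day 5 and 148 to 465 in brain. In baseline replicates 4 and 5 the T cell sums (164358 and 285250) were above the ILC2 sums (105781 and 158742). The part of T cells was not tested. Levels in all 4 groups are therefore described as levels of those libraries, and in bulk RNA fewer cells of a type cannot be told apart from less RNA per cell.

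For 30 of the 36 genes RefSeq (GRCm38.p6) gives a promoter window, and the 250 bases before the start were searched on both strands for 5 motifs. In these genes no match of one motif overlapped a match of another, though some kB matches overlap each other. Some genes have several windows, so each motif is counted by genes with at least 1 match, and the share of all 27025 genes with a window is given beside it. A CArG box was found in 3 of the 30 genes (Egr2, Dusp5 and Zfp36) and in 1.62% of all genes. The cAMP response element TGACGTCA was found in 4 of the 30 (1.77% of all genes), the AP-1 site TGANTCA in 4 (7.82%), the EGR site GCGGGGGCG in 7 (2.93%) and the kB site of NF-kB in 9 (4.46%). A match is a run of letters and shows no binding. Egr1, Egr3, Ier2, Bhlhe40, Relb and Nfkb1 had no window and were not searched. Sites outside the 250 bases were not searched for, so a gene without a match may hold one elsewhere. The 7 stretches printed here were picked from the genes whose values are given in full below and that hold at least 1 of the motifs. Fosb, Fosl2, Egr2, Klf4, Ier3, Rel and Nfkb2 also meet this rule and are not printed. Motifs stand in capitals. Bases that GENCODE M21 annotates as untranslated exon were left out. The Fos stretch (chr12:85473640-85473889, plus strand) holds a kB site at 214 to 205 bases before the start. The Nr4a1 stretch (chr15:101266596-101266845, plus strand) holds an EGR site at 60 to 52 bases before the start. The Dusp1 stretch (chr17:26508520-26508722, minus strand) holds a cAMP response element at 143 to 136 bases before the start. The Dusp2 stretch (chr2:127335909-127336158, plus strand) holds an EGR site at 98 to 90 bases before the start. The Dusp5 stretch (chr19:53528895-53529108, plus strand) holds a pair of adjoining CArG boxes at 82 to 63 bases before the start. The Nfkbia stretch (chr12:55492648-55492897, minus strand) holds a kB site at 29 to 20 bases before the start. The Tnfaip3 stretch (chr10:19015411-19015547, minus strand) holds an AP-1 site at 136 to 130 bases before the start and kB sites at 125 to 116 and at 12 to 3 bases.
Fos: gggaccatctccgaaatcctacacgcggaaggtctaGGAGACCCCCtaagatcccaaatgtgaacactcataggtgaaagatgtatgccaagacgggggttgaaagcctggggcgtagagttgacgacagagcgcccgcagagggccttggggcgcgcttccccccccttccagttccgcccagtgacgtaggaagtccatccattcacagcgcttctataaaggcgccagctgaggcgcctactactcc
Nr4a1: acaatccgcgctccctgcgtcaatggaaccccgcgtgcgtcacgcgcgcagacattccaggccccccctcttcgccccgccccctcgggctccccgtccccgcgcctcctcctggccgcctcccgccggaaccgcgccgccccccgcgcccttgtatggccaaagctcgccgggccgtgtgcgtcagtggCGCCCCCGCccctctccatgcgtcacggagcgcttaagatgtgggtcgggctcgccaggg
Dusp1: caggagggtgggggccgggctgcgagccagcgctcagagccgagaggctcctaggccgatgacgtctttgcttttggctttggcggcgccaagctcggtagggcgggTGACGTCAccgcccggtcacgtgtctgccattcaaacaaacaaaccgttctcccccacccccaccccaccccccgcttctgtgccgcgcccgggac
Dusp2: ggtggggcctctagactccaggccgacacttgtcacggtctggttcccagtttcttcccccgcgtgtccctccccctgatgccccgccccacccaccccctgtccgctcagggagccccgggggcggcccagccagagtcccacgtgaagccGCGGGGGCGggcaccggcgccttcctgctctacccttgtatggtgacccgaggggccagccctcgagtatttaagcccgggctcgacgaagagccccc
Dusp5: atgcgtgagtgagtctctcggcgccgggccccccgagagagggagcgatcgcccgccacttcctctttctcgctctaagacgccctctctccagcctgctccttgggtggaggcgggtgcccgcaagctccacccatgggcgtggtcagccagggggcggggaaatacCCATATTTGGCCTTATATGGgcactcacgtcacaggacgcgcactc
Nfkbia: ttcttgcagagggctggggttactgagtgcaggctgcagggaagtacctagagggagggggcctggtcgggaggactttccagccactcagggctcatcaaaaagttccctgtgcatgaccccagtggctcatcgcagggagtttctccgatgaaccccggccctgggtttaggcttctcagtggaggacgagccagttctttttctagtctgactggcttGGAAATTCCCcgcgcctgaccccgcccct
Tnfaip3: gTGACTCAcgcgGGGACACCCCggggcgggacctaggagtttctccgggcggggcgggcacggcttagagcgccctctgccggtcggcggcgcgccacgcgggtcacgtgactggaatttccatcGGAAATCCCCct

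Blood day 5 against blood day 1 asks whether these genes differed between the blood libraries of these days. Of the 36 genes 3 rose on day 5 against day 1: Dusp1, Fos and Junb, which encode a phosphatase that switches off p38 and JNK kinases and 2 AP-1 subunits. By limma 0 fell. Of all genes tested, 16 passed (0.105%), 15 of them higher (0.0982%) and 1 lower (0.00655%). The median log2 difference was 1.02 over the 36 genes and 0.12 over all genes tested, and 35 of the 36 differences were positive, Dusp6 being the exception at -0.12 ± 0.26. An unadjusted p under 0.05 was reached by 16 of the 36 genes and by 7.64% of all genes, and edgeR called 1 of the 36 higher and 0 lower, DESeq2 8 higher and 0 lower.

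Dusp1 had 12216 to 47072 (median 32396) on blood day 5, against 966 to 4058 (median 1803) on blood day 1. The days did not overlap, and blood day 5 replicate 5 was the lowest of its group. The log2 difference was 3.90 ± 0.47 (3.51 in batch 1, 4.29 in batch 2), with a limma adjusted p of 4.46e-04, and the call held under each of the 14 alternatives and without each of the 23 libraries in turn. Fos, the AP-1 subunit that pairs with Jun proteins, had 4768 to 16136 (median 10175) on blood day 5, against 1175 to 2509.8 (median 2044) on blood day 1. Every day 5 library was above every day 1 library. The Fos difference was 2.35 ± 0.42 (2.48 in batch 1, 2.22 in batch 2, adjusted p = 0.0172), and it missed the threshold without blood day 1 replicate 5 (adjusted p = 0.0597) or without blood day 5 replicate 6 (0.0643). Fos also missed it in edgeR (adjusted p = 0.0537), in batch 1 alone (0.131), in batch 2 alone (0.163) and without the 4 libraries that stand apart (0.0679). Those 4 are blood day 1 replicates 2 and 6, brain replicate 2 and baseline replicate 5.

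Junb, the AP-1 subunit known for restraining Jun, had 12348 to 38543 (median 23434) on blood day 5, against 3707 to 10112 (median 5832) on blood day 1. These groups did not overlap either, but less than the width of either group lay between them. The Junb difference was 1.94 ± 0.35 (2.37 in batch 1, 1.52 in batch 2, adjusted p = 0.0183), and leaving out blood day 1 replicate 4 (adjusted p = 0.0558) or 5 (0.0758), or blood day 5 replicate 1 (0.0665), 2 (0.0578) or 6 (0.0554), took it past 0.05. Junb also missed the threshold in edgeR (adjusted p = 0.0739) and in batch 2 alone (0.256). Both Junb and Dusp1 overlap a gene on the opposite strand, and the sources used here give no strand setting for the counting. Jun, Jund, Csrnp1, Bhlhe40, Ppp1r15a, Dusp5, Zfp36, Zfp36l1 and Nfkb2 also overlap genes on the opposite strand, so the same limit holds for them. The Junb partner Prdx2 had a log2 difference of -1.25 ± 0.35 (adjusted p = 0.283) and the Dusp1 partner Ergic1 one of -0.71 ± 0.31 (adjusted p = 0.618). Against the baseline Prdx2 had 1.68 ± 0.36 (limma adjusted p = 0.00105) in blood on day 1 and 0.42 ± 0.36 (adjusted p = 0.432) on day 5. In brain Prdx2 had 0.94 ± 0.36 (adjusted p = 0.0364), and all of these have the same sign as Junb. Ergic1 had -2.47 ± 0.33, -3.18 ± 0.33 and -1.86 ± 0.33 in these comparisons (adjusted p = 3.23e-06, 7.88e-08 and 4.35e-05). The part of reads from the other strand was not tested for any of these genes.

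Besides these 3 genes, Tnfaip3, Dusp2 and Zfp36 had day 5 libraries that all lay above the day 1 libraries. Such a separation was seen in 6 of the 36 genes and in 1.12% of all genes. Tnfaip3, which encodes A20, a ubiquitin-editing enzyme that shuts off NF-kB signalling, had 2661 to 4129 (median 3318) on blood day 5, against 424 to 1682 (median 894) on blood day 1. Its log2 difference of 2.02 ± 0.43 (2.81 in batch 1, 1.24 in batch 2) missed the threshold (adjusted p = 0.081), while DESeq2 called it (adjusted p = 0.00183). Dusp2 (log2 difference 1.39 ± 0.34, adjusted p = 0.186) encodes a nuclear phosphatase of leukocytes, and Zfp36 (1.36 ± 0.33, adjusted p = 0.171) encodes tristetraprolin, which marks cytokine mRNAs for decay.

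Nfkbia, which encodes IkB alpha, had 4867 to 14175 (median 9420.0) on blood day 5, against 4471 to 5800.2 (median 4963) on blood day 1, with overlapping groups and a log2 difference of 0.82 ± 0.38 (1.35 in batch 1, 0.29 in batch 2, adjusted p = 0.641). Jun, the usual partner of Fos in AP-1, had 664 to 1466 (median 994) on blood day 5, against 305 to 771 (median 493) on blood day 1. Its day 5 and day 1 ranges overlapped, and the difference of 1.03 ± 0.27 (1.30 in batch 1, 0.75 in batch 2) did not pass (adjusted p = 0.255). Nr4a1, an orphan nuclear receptor used as a reporter of antigen receptor signals in lymphocytes, had 3089 to 6657 (median 3497) on blood day 5, against 241 to 3430.4 (median 1648) on blood day 1. The groups overlapped, and the Nr4a1 difference was 1.60 ± 0.90 (2.77 in batch 1, 0.43 in batch 2, adjusted p = 0.675). The log2 differences of the NF-kB subunits were 1.26 ± 0.98 for Rel, 0.55 ± 0.32 for Nfkb2, 0.55 ± 0.34 for Relb and 0.09 ± 0.29 for Nfkb1, none past the threshold.

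**Figure D1:**
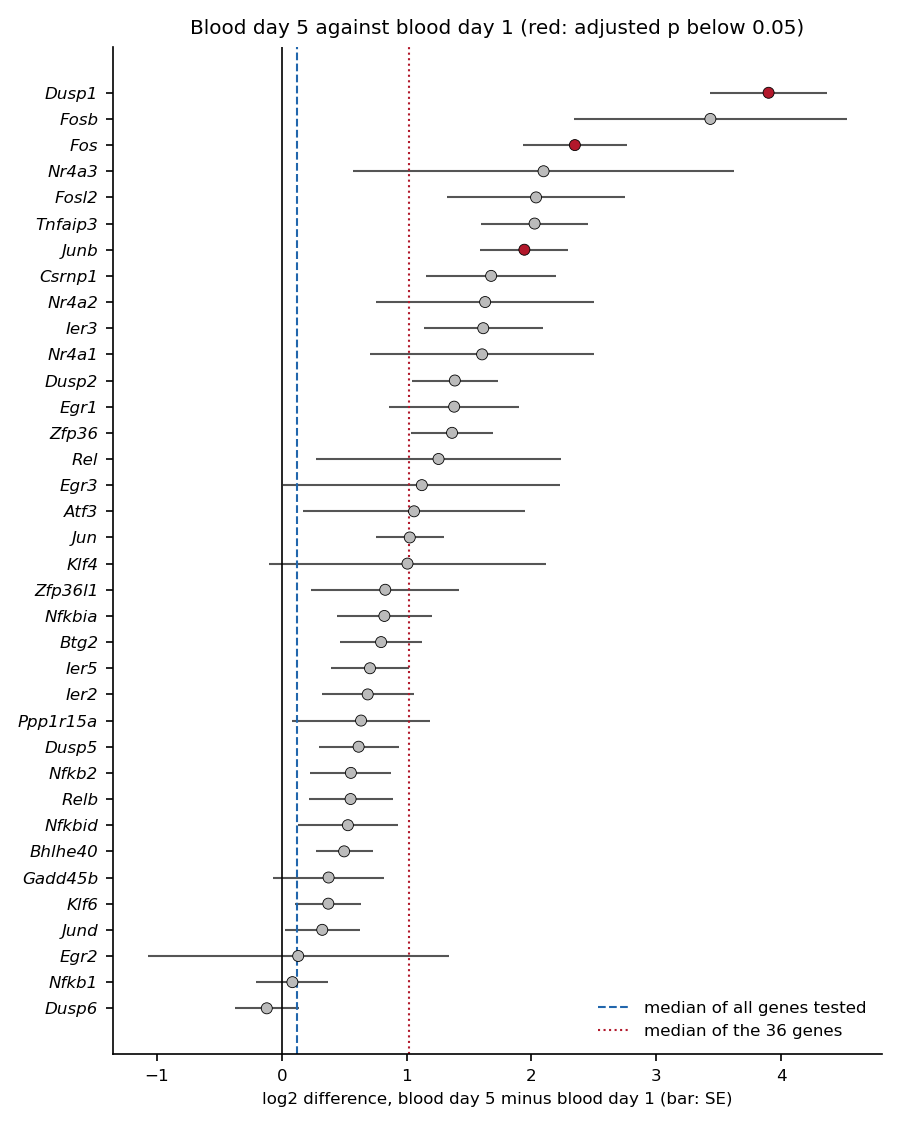
Log2 difference of blood day 5 minus blood day 1 for each of the 36 genes (x axis, limma estimate on log2(normalized count + 1), bar = SE), ordered by size, with the medians of the 36 genes and of all genes tested as vertical lines. Dusp1, Fos and Junb (red) passed the adjusted threshold, and Dusp6 alone lies below 0.

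**Figure D2:**
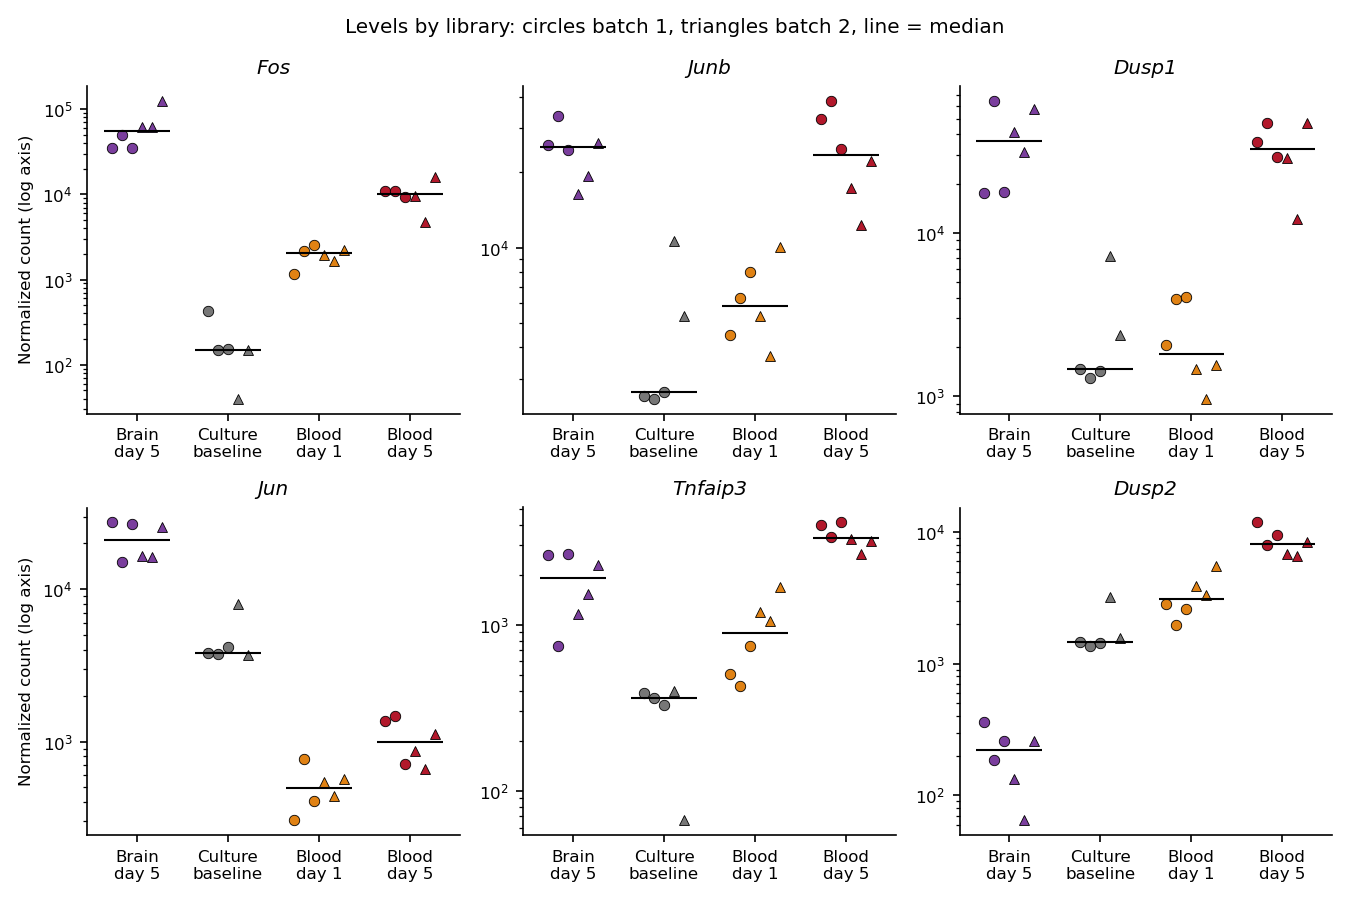
Normalized count (y axis, log scale) of Fos, Junb, Dusp1, Jun, Tnfaip3 and Dusp2 in every library of the 4 groups, with circles for batch 1, triangles for batch 2 and a line at the group median. In Fos, Junb, Dusp1, Tnfaip3 and Dusp2 all blood day 5 libraries lie above all blood day 1 libraries, Jun is lowest in blood, and Dusp2 is lowest in brain.

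Markers of other blood cells were also compared between the same days, and limma called 0 platelet, erythroid, B cell, NK cell or T cell markers. The summed level of 8 neutrophil markers was 36256 to 485043 on blood day 5 and 11074 to 56915 on blood day 1. Their 8 differences were all positive, and 6 of them had an unadjusted limma p under 0.05, beside 7.64% of all genes. Of these 8 markers 0 were called by limma, 0 by edgeR and 2 by DESeq2. Cd14, a monocyte receptor for endotoxin, was the 1 of 6 monocyte and macrophage markers that rose, by 2.95 ± 0.47 (adjusted p = 0.00666), while the summed level of that list was 18947 to 32927 on blood day 5 and 16115 to 49435 on blood day 1. The 49435 was in blood day 1 replicate 2, and the other day 1 libraries had at most 29601. None of these markers was at 0 throughout either group. Neutrophil sums did not overlap between the days in batch 2 and overlapped in batch 1. The part of these cells in the result was not tested.

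Both blood days were then set against the culture baseline, which compares the blood libraries with those of the culture. On blood day 1, 16 of the 36 genes rose and 6 fell against the baseline, among 18.1% higher and 14.0% lower of all genes tested (32.1% in all), and the groups did not overlap in 13 of the 36 genes and in 17.1% of all genes. On blood day 5, 22 rose and 5 fell, among 19.6% higher and 11.4% lower of all genes (31.1% in all), with no overlap in 24 of the 36 and in 24.7% of all genes. The median log2 difference of the 36 genes was 0.98 on day 1 and 1.97 on day 5, against 0.04 and 0.14 over all genes. Both comparisons share the baseline libraries, so their values are not independent of each other. Setting libraries to equal totals moved the day 5 differences of all genes by a median of 0.36 and took the share of calls that were higher to 76.0%, against 63.2% as deposited. The same scaling moved day 1 against the baseline by 0.10 and day 5 against day 1 by 0.26.

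Among the AP-1 genes, 2 rose and 3 fell on day 1, and 3 rose and 2 fell on day 5, of 7. Fos had 426, 149.8, 154, 40.0 and 149 normalized counts in baseline replicates 1 to 5, 1175 to 2509.8 (median 2044) on blood day 1 and 4768 to 16136 (median 10175) on blood day 5, with no overlap between the baseline and either day. Its log2 difference from the baseline was 3.73 ± 0.44 (3.10 in batch 1, 4.63 in batch 2) on day 1 (adjusted p = 6.13e-07) and 6.08 ± 0.44 (5.58 in batch 1, 6.84 in batch 2) on day 5 (adjusted p = 4.45e-10). Jun moved the other way. It had 3789, 3766, 4155, 7973 and 3674 in the baseline, 305 to 771 (median 493) on blood day 1 and 664 to 1466 (median 994) on blood day 5, again without overlap, and fell by 3.19 ± 0.29 on day 1 and by 2.17 ± 0.29 on day 5 (adjusted p = 1.24e-08 and 3.17e-06). Jund fell by 1.41 ± 0.31 and 1.09 ± 0.31. The Jund call was lost on day 1 in batch 2 alone (adjusted p = 0.129). On day 5 Jund lost it with equal totals (adjusted p = 0.169) and in batch 2 alone (0.115). Atf3, a stress-induced repressor, rose by 2.71 ± 0.94 and 3.76 ± 0.94. The day 1 call of Atf3 ended without baseline replicate 2 (adjusted p = 0.0503) or 5 (0.113, log2 difference 1.28), or without blood day 1 replicate 2 (0.0678), 4 (0.0518) or 6 (0.0537). It was also lost in edgeR (adjusted p = 0.0721), with only both groups' libraries (0.122), in batch 1 alone (0.352, log2 difference 1.20) and without the 4 libraries that stand apart (0.359, log2 difference 0.76). On day 5 Atf3 lost the call in batch 1 alone (adjusted p = 0.0507). Fosl2 had 1567, 1631, 1692, 319.8 and 1155 in the baseline, 24.8 to 240.5 (median 128) on blood day 1 and 205 to 1392 (median 437) on blood day 5. It fell by 3.45 ± 0.75 on day 1 without overlap (adjusted p = 0.00104), a call lost in batch 2 alone (adjusted p = 0.294, log2 difference -1.60), and its day 5 difference of -1.41 ± 0.75 did not pass, with -2.94 in batch 1 and 0.50 in batch 2. Junb rose on day 5, by 2.54 ± 0.37, a call lost in batch 2 alone (adjusted p = 0.109, log2 difference 1.16), and its day 1 difference was 0.60 ± 0.37 (adjusted p = 0.23).

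On each day 2 of 3 EGR genes and 1 of 3 NR4A genes rose. Egr1 and Egr2, which drive growth factor and activation responses, rose on both days, Egr1 by 2.03 ± 0.55 (1.77 in batch 1, 2.30 in batch 2) on day 1 and 3.42 ± 0.55 on day 5. The day 1 call of Egr1 was lost with only both groups' libraries (adjusted p = 0.0854), in batch 1 alone (0.118), in batch 2 alone (0.0514) and without the 4 libraries that stand apart (0.117, log2 difference 1.01). Egr2 was at 0 in 3 of 5 baseline libraries, so the size of its difference (4.36 ± 1.27 and 4.49 ± 1.27) depends on the pseudocount of 1. Egr2 lost its day 1 call in batch 1 alone (adjusted p = 0.253, log2 difference 2.06) and its day 5 call in batch 2 alone (adjusted p = 0.106). Egr3 had at most 33.6 normalized counts in any library, and neither of its differences passed. Nr4a1 had 298, 133, 99.0, 75.9 and 0 in the baseline, 241 to 3430.4 (median 1648) on blood day 1 and 3089 to 6657 (median 3497) on blood day 5. The day 5 libraries lay above the baseline, and 1 day 1 library was within its range. Its difference was 4.78 ± 0.94 (2.17 in batch 1, 8.13 in batch 2) on day 1 (adjusted p = 4.00e-04) and 6.39 ± 0.94 (4.94 in batch 1, 8.56 in batch 2) on day 5 (adjusted p = 1.29e-05). Baseline replicate 5, of batch 2, was at 0, so the size of the batch 2 values depends on the pseudocount of 1. The baseline of Nr4a3, a close relative of Nr4a1, differed between batches, with 1049, 999, 966, 0 and 0 in replicates 1 to 5, and its day 5 difference was -4.93 in batch 1 and 6.24 in batch 2. No direction is given for it. Nr4a2 did not pass on either day.

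Of the 9 other immediate early regulators, 5 rose and 2 fell on each day. Klf4, a zinc finger transcription factor, had 21.7, 9.13, 3.30, 0 and 0 in the baseline, 0 to 387 (median 76.9) on blood day 1 and 40.6 to 357 (median 79.1) on blood day 5. It rose by 3.58 ± 1.16 on day 1, where the groups overlapped, and by 4.59 ± 1.16 on day 5, where they did not (adjusted p = 0.0217 and 0.00377). Leaving out baseline replicate 4 (adjusted p = 0.0683) or 5 (0.0677), or blood day 1 replicate 5 (0.0525), ended the day 1 call. Klf4 also lost it with only both groups' libraries (adjusted p = 0.113) and in batch 1 alone (0.71, log2 difference 0.87). On day 5 Klf4 lost the call in batch 1 alone (adjusted p = 0.194, log2 difference 2.90). Klf6, Ier2, Ier5 and Gadd45b rose on each day, by 0.75 to 2.40 on day 1 and by 1.13 to 2.78 on day 5, but the Klf6 difference on day 1 was 1.41 in batch 1 and -0.12 in batch 2. That call ended without any 1 of the baseline replicates 1, 2 or 3 (adjusted p = 0.102, 0.114 and 0.113), or of the blood day 1 replicates 1, 2, 3 or 5 (0.053, 0.0861, 0.0936 and 0.0703). Klf6 also lost it in edgeR (adjusted p = 0.0628), with only both groups' libraries (0.131) and with the closest libraries averaged (0.354, log2 difference 0.45). Klf6 lost its day 5 call in batch 2 alone (adjusted p = 0.518, log2 difference 0.36) and with the closest libraries averaged (0.0693). Ier2 lost the day 1 call in edgeR (adjusted p = 0.0654), in batch 2 alone (0.49, log2 difference 0.54) and with the closest libraries averaged (0.177). On day 5 Ier2 lost it in batch 2 alone (adjusted p = 0.501, log2 difference 0.51). Ier5 lost the day 1 call in batch 1 alone (adjusted p = 0.247, log2 difference 0.44). Bhlhe40, a repressor linked to cytokine output in lymphocytes, had 19636, 18703, 19231, 22899.9 and 18756 in the baseline, 2148 to 4434 (median 3159) on blood day 1 and 3489 to 5062 (median 4494) on blood day 5. It fell without overlap, by 2.70 ± 0.24 and 2.20 ± 0.24 (adjusted p = 8.99e-09 and 1.80e-07). Ier3, a regulator of cell survival, had 1479, 1443, 1489, 5545 and 3515 in the baseline, 90.5 to 569 (median 234) on blood day 1 and 350.4 to 1510.1 (median 679.6) on blood day 5. Day 1 did not overlap with the baseline and day 5 did, and Ier3 fell by 3.42 ± 0.50 and 1.81 ± 0.50 (adjusted p = 1.19e-05 and 0.00731). Csrnp1 and Ppp1r15a (a phosphatase subunit of the stress response) did not pass, and the Ppp1r15a difference on day 5 was 3.56 in batch 1 and -1.16 in batch 2.

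Of the 4 phosphatases 1 rose on day 1 and 3 on day 5, and of the 3 measured genes of RNA decay and growth restraint 2 rose on day 1 and 3 on day 5. Dusp6, which acts on cytoplasmic ERK, rose by 1.92 ± 0.27 on day 1 and 1.80 ± 0.27 on day 5. Dusp1 and Dusp2 rose on day 5, by 3.82 ± 0.49 and 2.29 ± 0.36, with day 1 differences of -0.08 ± 0.49 and 0.91 ± 0.36 that did not pass. Dusp5, a nuclear ERK phosphatase, passed on neither day (-0.09 ± 0.34 and 0.53 ± 0.34). Zfp36 rose by 2.59 ± 0.34 and 3.95 ± 0.34, and Btg2, an antiproliferative partner of the deadenylase complex, by 2.92 ± 0.34 and 3.72 ± 0.34, both without overlap on either day. Zfp36l1 rose on day 5 by 1.91 ± 0.62, a call that ended without baseline replicate 5 (adjusted p = 0.0937) or blood day 5 replicate 6 (0.0509), and in batch 1 alone (adjusted p = 0.558, log2 difference 0.70).

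Of the 4 NF-kB subunits 1 rose and 1 fell on day 1, and 2 rose and 1 fell on day 5. Rel (c-Rel, the subunit of activated lymphocytes) had 65.0, 34.7, 21.5, 0 and 0 in the baseline, 40.2 to 1034 (median 238) on blood day 1 and 261 to 1626 (median 387) on blood day 5. It rose by 4.64 ± 1.03 (1.35 in batch 1, 9.01 in batch 2) on day 1 and 5.90 ± 1.03 (2.96 in batch 1, 9.91 in batch 2) on day 5 (adjusted p = 0.00131 and 9.75e-05), where both batch 2 baseline libraries are at 0 and the pseudocount sets the batch 2 value. Rel lost the day 1 call in batch 1 alone (adjusted p = 0.215, log2 difference 1.35). Nfkb1, the precursor of the small subunit of the main dimer, had 14409.9, 14339.9, 14527, 13182 and 4737 in the baseline, 2138 to 3339 (median 2374) on blood day 1 and 2129 to 3716 (median 2586) on blood day 5. No blood library reached the baseline range, and Nfkb1 fell by 2.15 ± 0.30 and 2.07 ± 0.30 (adjusted p = 7.32e-06 and 1.15e-05). Relb rose on day 5 by 1.34 ± 0.35, a call lost in batch 2 alone (adjusted p = 0.811, log2 difference 0.26) and with the closest libraries averaged (0.0891), and Nfkb2 passed on neither day.

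All 3 measured feedback genes of NF-kB rose on day 5, and 2 of them on day 1. Nfkbia had 471, 405, 376, 2375 and 1055 in the baseline, 4471 to 5800.2 (median 4963) on blood day 1 and 4867 to 14175 (median 9420.0) on blood day 5. Neither day overlapped with the baseline, whose batch 2 libraries were the higher ones, and Nfkbia rose by 2.82 ± 0.40 (3.65 in batch 1, 1.60 in batch 2) on day 1 and 3.64 ± 0.40 (5.01 in batch 1, 1.89 in batch 2) on day 5 (adjusted p = 7.79e-06 and 2.06e-07). Tnfaip3 had 388, 363, 328, 399 and 66.5 in the baseline and rose by 1.67 ± 0.45 (0.59 in batch 1, 2.96 in batch 2) on day 1 and 3.69 ± 0.45 (3.40 in batch 1, 4.20 in batch 2) on day 5 (adjusted p = 0.00633 and 9.36e-07). The day 1 call of Tnfaip3 was lost with only both groups' libraries (adjusted p = 0.0555) and in batch 1 alone (0.333, log2 difference 0.59). Nfkbid, a nuclear IkB protein, rose on day 5 by 1.58 ± 0.42. Markers of blood cells rose beside these genes, 8 of 8 platelet, 7 of 8 B cell and 5 of 6 NK cell markers on day 1 and 8 of 8, 8 of 8 and 5 of 6 on day 5. Of all genes tested, 18.1% were higher on day 1 and 19.6% on day 5. Of the 8 platelet markers edgeR called 8 higher on each day, but DESeq2 called only 1 on each day. The platelet markers summed to 69.3 to 9906 in the baseline, 75628 to 2353967 on blood day 1 and 30849.9 to 285206 on blood day 5. The highest day 1 sum was in replicate 2, and the other day 1 libraries had at most 153813. Replicate 2 also had sums of 61543 for choroid plexus and ependyma markers, 47382 for microglia and 7979 for neuron markers. The other blood day 1 libraries had at most 1572, 9146 and 851. The B cell markers summed to 94.6 to 3273 in the baseline, 22753 to 68162 on blood day 1 and 40089 to 106701 on blood day 5. The NK cell markers summed to 3615 to 6548 in the baseline, 34249 to 56276 on blood day 1 and 33619.9 to 78258 on blood day 5. Erythroid markers, of which 4 of 4 rose on each day, summed to 244 to 101725 in the baseline, 162131 to 1695658 on blood day 1 and 46092 to 745831 on blood day 5. No marker of these 4 lists was at 0 throughout a group, and the part of such cells in the differences was not tested.

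**Figure D3:**
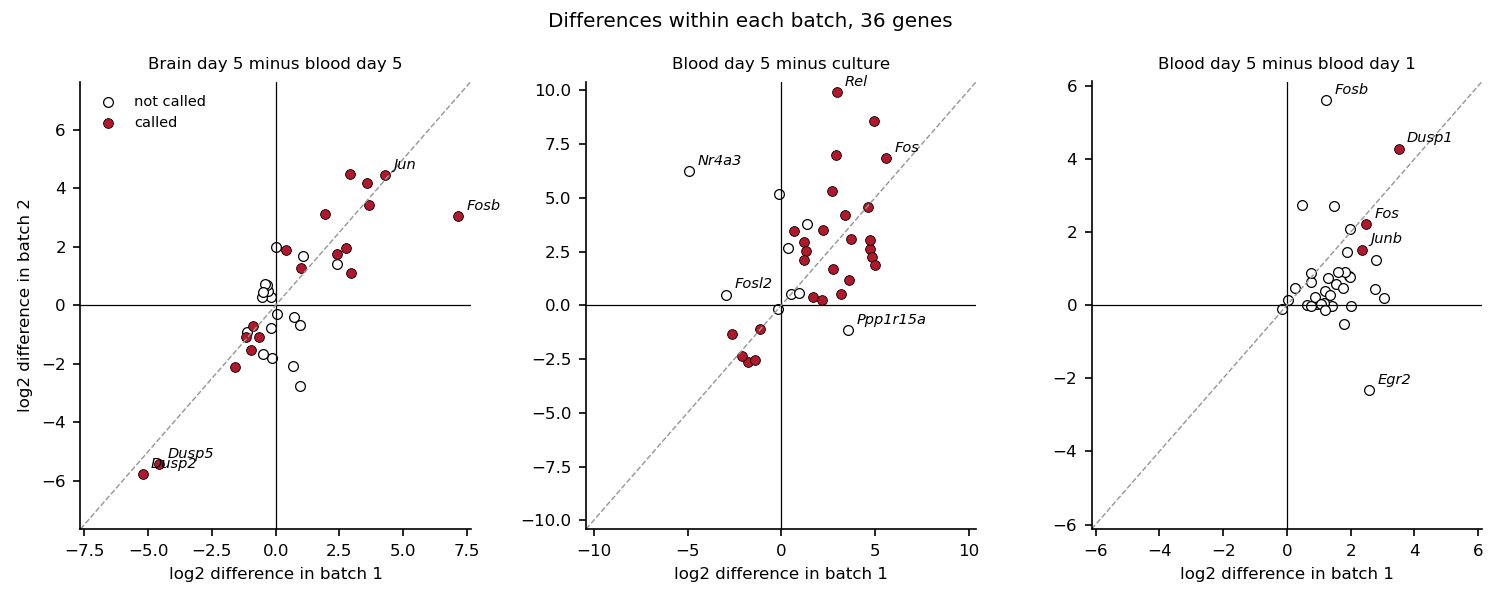
Log2 difference of each of the 36 genes within batch 1 (x axis) and within batch 2 (y axis) for brain day 5 minus blood day 5, blood day 5 minus culture baseline and blood day 5 minus blood day 1, with red points for genes called over both batches and a dashed line where the batches are equal. Jun, Dusp2 and Dusp5 lie close to the line in the first panel, while Nr4a3, Fosl2 and Ppp1r15a are among those with opposite signs in the second.

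Brain day 5 was compared with blood day 5, which sets the tissue against the circulation at one time. Of the 36 genes 11 rose and 7 fell in brain against blood, among 33.6% higher and 14.3% lower of all genes tested (47.9% in all), and 11 of the 36 did not overlap, as did 35.4% of all genes. Both shares of the 36 genes (30.6% higher, 19.4% lower) are near the background. The genes that rose included 4 AP-1 and 2 EGR genes, with Fosb, Jun, Egr1 and Atf3 at the largest differences, and the genes that fell were Dusp2, Dusp5, 3 of the 4 NF-kB subunits, Bhlhe40 and Klf6. The median difference of the 36 was 0.11, against 0.47 over all genes. Scaling by TMM or to equal totals moved all differences of this comparison by a median of -0.41 or -0.40, and the share of calls that were higher was 58.4% or 59.5%, against 70.1% as deposited.

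Jun had 15118 to 27469.5 (median 21113) in brain, against 664 to 1466 (median 994) in blood on day 5. Every brain library was above every blood library, and the log2 difference was 4.38 ± 0.27 (4.30 in batch 1, 4.46 in batch 2, adjusted p = 6.04e-12). Fos had 34892 to 125048 (median 55814) in brain, against 4768 to 16136 (median 10175) in blood, again without overlap, and rose by 2.53 ± 0.42 (1.94 in batch 1, 3.12 in batch 2, adjusted p = 2.08e-05). Fosb, a close relative of Fos, had 88.6 to 8076 (median 1063) in brain, against 11.1 to 207 (median 32.6) in blood. The spread among brain libraries was wide, with replicates 1 and 3 the highest and replicate 2 within the blood range, and the rise was 5.10 ± 1.09 (7.15 in batch 1, 3.04 in batch 2, adjusted p = 4.46e-04), a call lost in batch 2 alone (adjusted p = 0.078, log2 difference 3.04). Atf3 had 3839.5 to 16306 (median 5815) in brain, against 137 to 1694 (median 418) in blood, without overlap, and rose by 3.70 ± 0.89 (2.93 in batch 1, 4.48 in batch 2, adjusted p = 0.00133).

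Egr1 had 7693 to 20150.0 (median 16893) in brain, against 657 to 1525 (median 861) in blood, and every brain library was above every blood library. It rose by 3.87 ± 0.52 (3.57 in batch 1, 4.16 in batch 2, adjusted p = 1.51e-06). Egr2 rose by 3.54 ± 1.20 (adjusted p = 0.0183), a call that ended without blood day 5 replicate 6, its only blood library at 0 (adjusted p = 0.0607), and in edgeR (adjusted p = 0.0961) and in batch 2 alone (0.136). The NR4A genes did not pass: Nr4a1 had 2081 to 6399 (median 4743) in brain, against 3089 to 6657 (median 3497) in blood, with ranges that overlapped and a difference of 0.09 ± 0.90 (adjusted p = 0.95). Gadd45b rose by 2.35 ± 0.44 and Ier3 by 2.07 ± 0.48, while Klf6 fell by 0.80 ± 0.26, a call lost in batch 2 alone (adjusted p = 0.102). Bhlhe40 had 1058 to 2554 (median 2047) in brain, against 3489 to 5062 (median 4494) in blood, and fell by 1.24 ± 0.23 without overlap (adjusted p = 7.84e-05).

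The 4 phosphatases split. Dusp2 had 64.9 to 362 (median 222) in brain, against 6524 to 11830.3 (median 8152) in blood, and fell by 5.49 ± 0.34 (-5.21 in batch 1, -5.76 in batch 2, adjusted p = 6.43e-12). Dusp5, whose window holds the adjoining CArG boxes, had 53.0 to 157 (median 74.4) in brain, against 2578 to 3412 (median 2755) in blood, and fell by 4.99 ± 0.32 (-4.55 in batch 1, -5.43 in batch 2, adjusted p = 9.33e-12). For both genes every brain library lay below every blood library. Dusp6 rose by 1.14 ± 0.26, a call lost with equal totals (adjusted p = 0.0637, log2 difference 0.74). Dusp1 had 17557 to 64105 (median 36189) in brain, against 12216 to 47072 (median 32396) in blood, with overlapping ranges and a difference of 0.15 ± 0.47 (adjusted p = 0.833). Zfp36 and Zfp36l1 rose by 1.16 ± 0.33 and 2.03 ± 0.59. Zfp36l1 lost the call in batch 2 alone (adjusted p = 0.223, log2 difference 1.11). Zfp36 lost it in edgeR (adjusted p = 0.0839, log2 difference 0.76), with equal totals (0.0622, log2 difference 0.76), under TMM scaling (0.0591, log2 difference 0.75) and in batch 1 alone (0.346, log2 difference 0.43), and the Zfp36 difference was 0.43 in batch 1 and 1.90 in batch 2.

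Nfkb2, the precursor of the subunit that pairs with Relb, had 359 to 1158 (median 609.5) in brain, against 1852 to 2918 (median 2336) in blood. Brain lay below blood in every library, and Nfkb2 fell by 1.85 ± 0.32 (-1.60 in batch 1, -2.09 in batch 2, adjusted p = 4.67e-05). Relb and Nfkb1 fell by 1.13 ± 0.34 and 0.87 ± 0.29, with overlapping ranges. Relb lost the call in batch 2 alone (adjusted p = 0.101), and Nfkb1 in batch 1 alone (adjusted p = 0.18). Tnfaip3 had 741 to 2661 (median 1908) in brain, against 2661 to 4129 (median 3318) in blood, and its difference of -1.03 ± 0.43 (-1.14 in batch 1, -0.93 in batch 2) missed the threshold (adjusted p = 0.0505), the highest brain library and the lowest blood library having nearly the same value. Nfkbia had 5780.3 to 12767 (median 8697) in brain, against 4867 to 14175 (median 9420.0) in blood, with a difference of -0.01 ± 0.38 (-0.50 in batch 1, 0.47 in batch 2, adjusted p = 0.981).

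Against the culture baseline, 22 of the 36 genes rose and 7 fell in brain on day 5, among 37.5% higher and 11.7% lower of all genes tested (49.2% in all), with no overlap in 25 of the 36 genes and in 35.6% of all genes. The median difference of the 36 was 2.34, against 0.67 over all genes, and TMM scaling moved all differences by a median of -0.37, with 65.8% of calls higher, against 76.3% as deposited. The comparison shares its brain libraries with the one above and its baseline libraries with the blood comparisons. Fos rose by 8.60 ± 0.44 (7.52 in batch 1, 9.96 in batch 2, adjusted p = 2.35e-13), with 34892 to 125048 (median 55814) in brain and 426, 149.8, 154, 40.0 and 149 in the 5 baseline libraries. Egr2 had 201 to 895 (median 531) in brain, against 5.42, 1.83, 0, 0 and 0 in the baseline, and rose by 8.02 ± 1.27 (adjusted p = 1.07e-05). Atf3 rose by 7.47 ± 0.94 and Fosb by 7.42 ± 1.15. Fosb had 16.2, 9.13, 13.2, 0 and 8.86 in the 5 baseline libraries. Jun rose by 2.21 ± 0.29, Nr4a1 by 6.48 ± 0.94, Nfkbia by 3.63 ± 0.40 and Tnfaip3 by 2.66 ± 0.45, all without overlap. Egr2, Atf3, Fosb and Nr4a1 were each at 0 in at least 1 baseline library, so the sizes of their differences depend on the pseudocount of 1.

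Dusp5 had 1962, 1916, 1984, 2507 and 1538 in the baseline libraries, every one above the brain range, and fell in brain by 4.46 ± 0.34 (-4.02 in batch 1, -4.90 in batch 2, adjusted p = 1.45e-10). Dusp2, with 1466, 1368, 1426, 3184 and 1565 in the baseline, fell by 3.19 ± 0.36 (-2.45 in batch 1, -4.08 in batch 2, adjusted p = 9.59e-08). Bhlhe40 fell by 3.43 ± 0.24 and Nfkb1 by 2.94 ± 0.30, where Nfkb1 had 743 to 2132 (median 1676) in brain. Nfkb2, Fosl2 and Jund fell by 1.07 ± 0.34, 2.11 ± 0.75 and 0.93 ± 0.31, with overlapping ranges in all 3. The Fosl2 call ended without baseline replicate 1, 2 or 3 (adjusted p = 0.0558, 0.0581 and 0.0591) or brain replicate 2 (0.0569) or 6 (0.0619), and that of Jund without baseline replicate 4 (0.0729). Fosl2 also lost the call in batch 2 alone (adjusted p = 0.219), with the closest libraries averaged (0.097) and without the 4 libraries that stand apart (0.0739). Jund lost it in batch 1 alone (adjusted p = 0.265, log2 difference -0.38), and Nfkb2 in batch 1 alone (adjusted p = 0.132, log2 difference -0.65). Among the genes that rose, Ier2 lost the call in batch 2 alone (adjusted p = 0.066, log2 difference 1.19) and Ppp1r15a in batch 2 alone (adjusted p = 0.162, log2 difference 0.82). Nfkbid lost it in edgeR (adjusted p = 0.143), with equal totals (0.0836), under TMM scaling (0.161, log2 difference 0.73), in batch 2 alone (0.112) and with the closest libraries averaged (0.0666). The rise of Nfkbid, 1.10 ± 0.42, also missed the threshold without baseline replicate 4 (0.0655) or 5 (0.114), or brain replicate 1 (0.0825), 3 (0.0812) or 6 (0.0741). The 7 genes that passed in neither direction were Egr3, Nr4a2, Nr4a3, Klf6, Ier3, Csrnp1 and Relb.

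**Figure D4:**
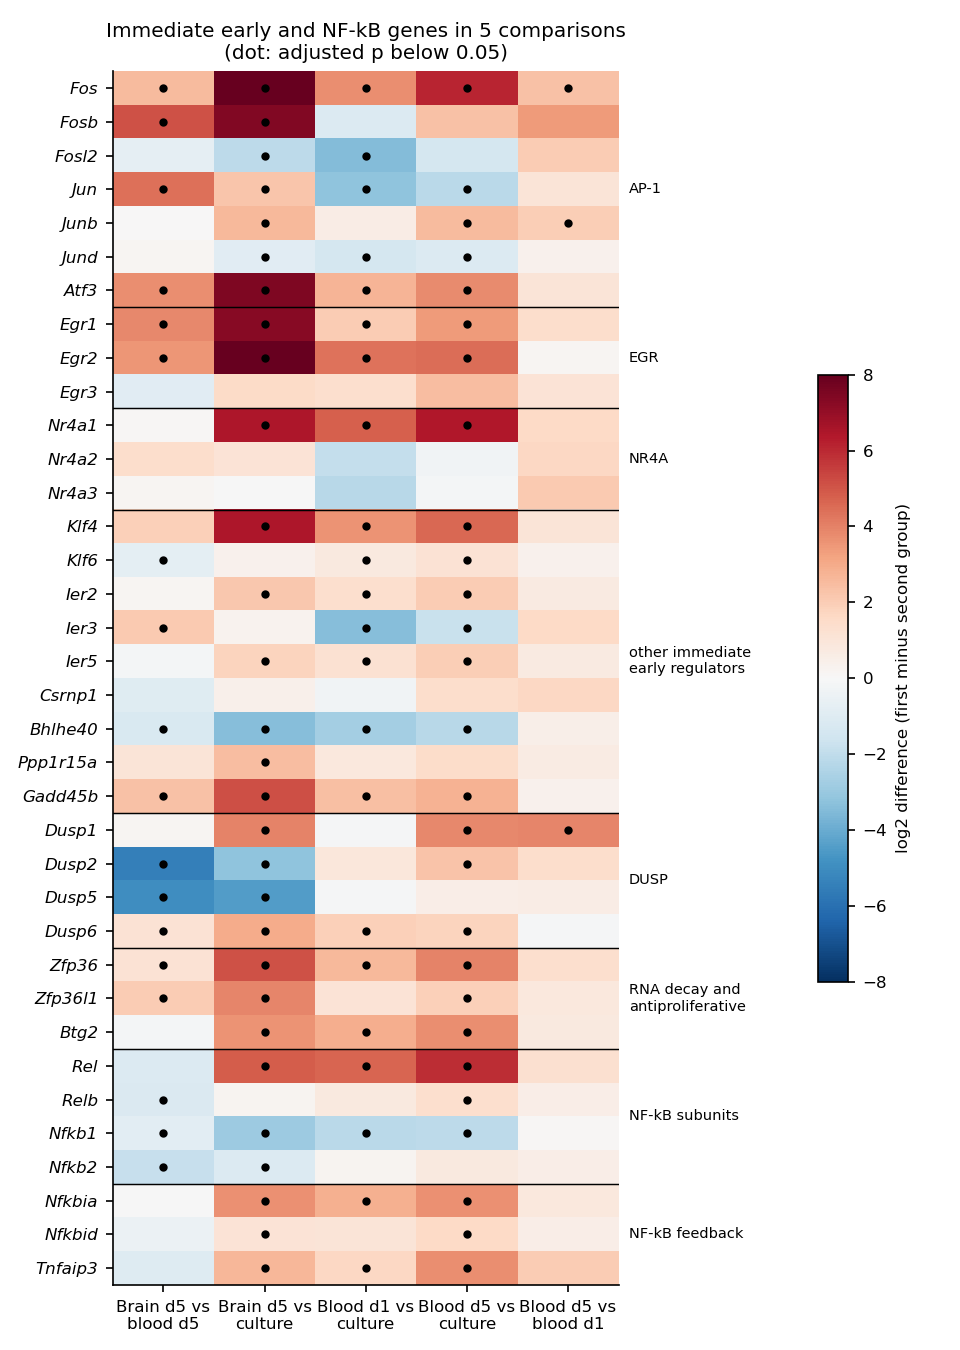
Log2 differences of the 36 genes (rows, grouped by role) in the 5 comparisons (columns, first group minus second), with red for higher and blue for lower in the first group, a colour scale that ends at 8, and a dot where the adjusted p was below 0.05. Fos carries a dot in every column, Jun is blue in both columns of blood minus culture and red in both brain columns, and Dusp2 and Dusp5 are blue in both brain columns.

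Markers of resident brain cells stood beside the brain differences, and against blood on day 5 8 of 8 choroid plexus and ependyma, 7 of 8 microglia and 8 of 8 oligodendrocyte markers rose in brain. The sum of 8 choroid plexus and ependyma markers was 380251 to 2286699.9 in brain, against 56.2 to 3447 in blood on day 5 and 1.83 to 403 in the baseline, where Foxj1 and Clic6 were at 0. That of 8 microglia markers was 95323 to 344408 in brain, against 7429.8 to 11846 in blood and 2509.6 to 7765 in the baseline, and that of 8 oligodendrocyte markers 207546 to 473424, against 13729.8 to 34258 and 3672 to 11009. The ILC2 markers summed to 5664 to 12746 in brain, 50884 to 70887 in blood on day 5 and 97609.7 to 158742 in the baseline. Of 8 heat shock genes, which are known to rise with warm tissue dissociation, 5 rose and 0 fell against blood day 5 (edgeR 3 and 0, DESeq2 5 and 0, with 5 at an unadjusted p under 0.05 in limma), beside 33.6% of all genes higher, Hspb1 by 7.61 ± 0.64 and Hspa1b by 4.54 ± 0.56. Against the baseline 3 of the 8 rose and 0 fell (edgeR 3 and 3, DESeq2 3 and 1, with 4 at an unadjusted p under 0.05 in limma). That share higher, 37.5%, is the same as the 37.5% of all genes. Their summed level was 35407 to 42126 in brain, 19417 to 25866 in blood on day 5 and 29210.0 to 60923 in the baseline. The baseline median of 57183 was above the 38793 of brain. The part of other cell types or of handling in the brain differences was not tested.

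**Figure D5:**
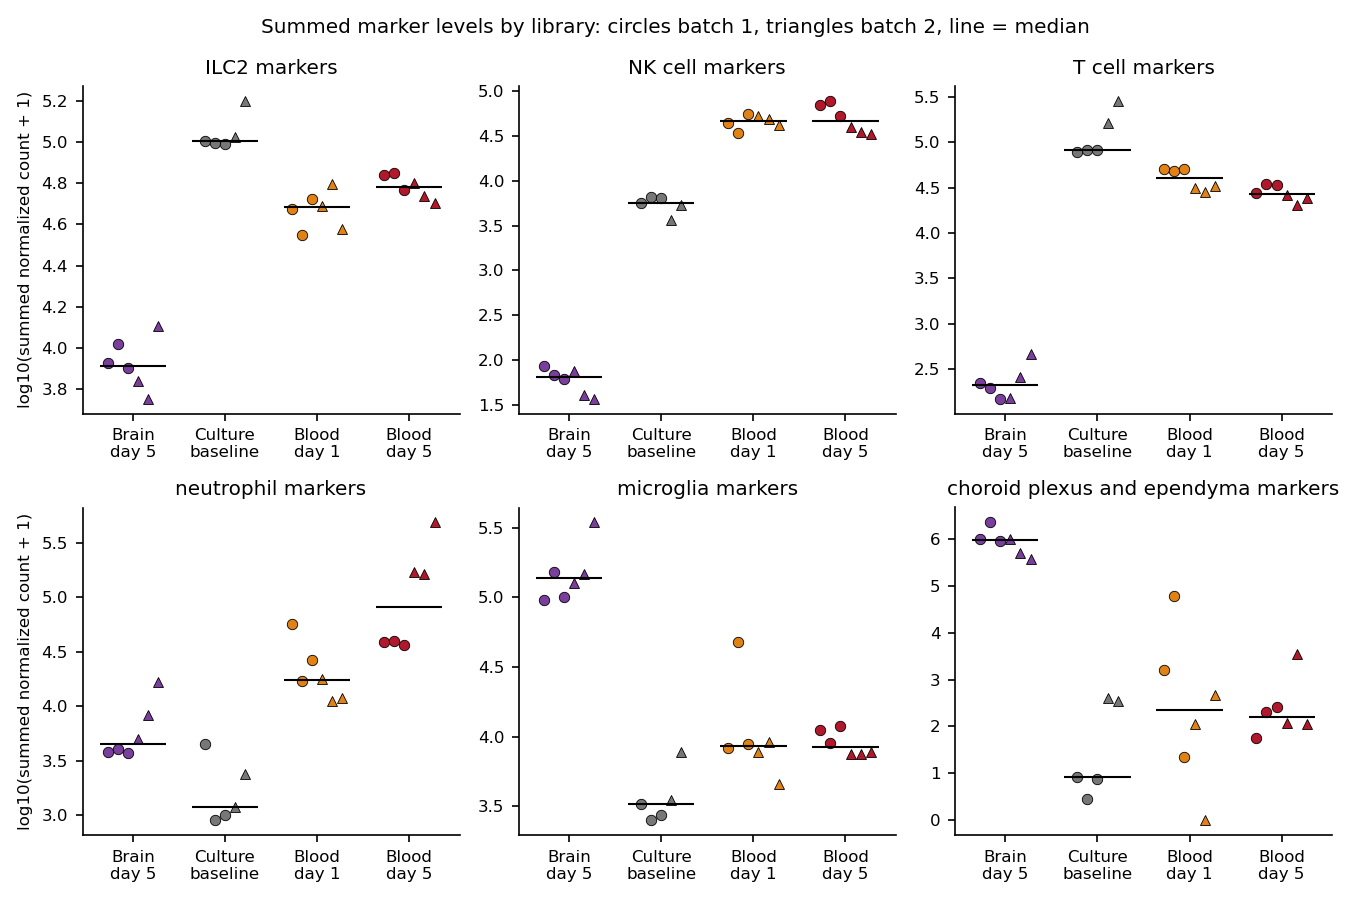
Summed normalized counts of 6 marker lists per library (y axis, log10 of the sum + 1) in the 4 groups, with circles for batch 1, triangles for batch 2 and a line at the group median. ILC2, NK cell and T cell markers are lowest in brain, microglia and choroid plexus markers are highest there, and neutrophil sums are highest in batch 2 of blood day 5.

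Other genes of the same pathways were taken as lists. Of all genes, 18.1% were higher and 14.0% lower in blood on day 1 against the baseline, 19.6% and 11.4% on day 5, and 33.6% and 14.3% in brain against blood. Of 22 other NF-kB pathway genes, 8 rose and 1 fell in blood on day 1 and again on day 5 against the baseline (36.4% and 4.55%), and 0 rose and 12 fell in brain against blood on day 5 (54.5% of the list, edgeR 0 and 14, DESeq2 0 and 10, 13 at an unadjusted p under 0.05 in limma). Birc3, an NF-kB target that blocks cell death, rose in blood on day 5 against the baseline by 1.77 ± 0.35 and fell in brain against blood by 2.38 ± 0.33. Traf1, another such target, fell by 1.25 ± 0.36 and by 2.26 ± 0.35 in these comparisons. Of 33 other immediate early and MAP kinase pathway genes, 10 rose and 8 fell in blood on day 1 (30.3% and 24.2%), 15 rose and 5 fell on day 5 (45.5% and 15.2%), and 7 rose and 10 fell in brain against blood (21.2% and 30.3%). Klf2, a factor of circulating and resting lymphocytes, rose in blood on day 5 against the baseline by 5.57 ± 0.32, and Gadd45g fell by 4.62 ± 0.37. In brain against blood, Sgk1 rose by 2.59 ± 0.23 and Arc, a neuronal immediate early gene, by 3.42 ± 1.10, while Cd69, an activation marker of lymphocytes, fell by 4.62 ± 0.47 and Batf by 2.93 ± 0.33. Of 18 kinases and factors upstream (MAP kinases, SRF and CREB partners), 4 rose and 2 fell on each blood day against the baseline (22.2% and 11.1%), near the shares of all genes, and 1 rose and 3 fell in brain against blood (5.56% and 16.7%). Between the blood days 0 genes of these 3 lists passed in limma, with 2, 6 and 0 at an unadjusted p under 0.05, 0 in edgeR and 0, 1 and 0 in DESeq2.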

How the data were processed

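RNA was sequenced from 23 libraries as paired reads of 150 bases, per the labels' protocols. The submitters' processing notes name fastp, HISAT2 2.0.5 and the mm10 build. The sources used here give no counting tool, annotation or strand setting. The values deposited by the authors are normalized counts (signal): whole reads divided by a size factor per library. Dividing by the smallest step gave back whole reads for 100.0% of values within 0.1 read, so the depth of each library could be summed.

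The main test was limma 3.58.1 (R 4.3.3) on log2(normalized count + 1) over all 23 libraries, with 4 groups and batch as terms, trend and robust moderation, and Benjamini-Hochberg adjustment over the 15268 genes that reached 10 in 5 or more libraries. A call is an adjusted p below 0.05. Errors after ± are SE, and within-batch values are differences of group means in 1 batch. Log2 differences are on the log2(value + 1) scale. They understate changes of genes low in every library, while single libraries at 0 can enlarge a difference, whose size then depends on the pseudocount. The step was tested on simulated data. Alternatives were edgeR 4.0.16 (quasi-likelihood, TMM) and DESeq2 1.42.0 on the recovered reads, pseudocounts of 0.5 and 5, no filter, equal totals, TMM in limma, only the groups compared, no batch, a replicate block, each batch alone, the closest libraries averaged, the 4 libraries that stand apart left out (blood day 1 replicates 2 and 6, brain replicate 2 and baseline replicate 5), and each library left out in turn.

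The genes and lists were chosen with earlier results of these data known. Genes given in full were representatives of their roles (Fos, Jun, Nr4a1, Nfkbia and Tnfaip3) and, per comparison, up to 4 of the largest rises and 4 of the largest falls among called genes whose higher group averaged 100 or more, with 1 sign in both batches. Of other lists at most 2 rises and 2 falls could be named under the same conditions; Cd14, the overlapping partners and, between the blood days, Dusp2 and Zfp36 were chosen after their values were seen. Gene positions are from GENCODE M21 and promoter windows from RefSeq, both on GRCm38.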

Additional observations from a re-analysis of the deposited data

Results flagged for a closer look

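In 144 sets of a gene and a group, 18 values lay far from the rest of their group, where chance gives about 1 in 20 sets of independent libraries. Of these, 5 were in culture baseline replicate 4 and 5 in culture baseline replicate 5, the 2 baseline libraries of batch 2. Culture baseline replicates 1 to 3 were closer to each other (chi-square per degree of freedom 4.19 to 12.5) than to these 2 libraries, so the chance rate cannot be applied to the 10 values. In culture baseline replicate 4, Fosb was at 0 normalized counts, against 8.86 to 16.2 in the other libraries of its group. Fosl2 was at 319.8 normalized counts, against 1155 to 1692 in the others. Jun was at 7973 normalized counts, against 3674 to 4155 in the others. Bhlhe40 was at 22899.9 normalized counts, against 18703 to 19636 in the others. Dusp2 was at 3184 normalized counts, against 1368 to 1565 in the others. In culture baseline replicate 5, Atf3 was at 0 normalized counts, against 49.3 to 137 in the others. Nr4a1 was at 0 normalized counts, against 75.9 to 298 in the others. Gadd45b was at 17.7 normalized counts, against 69.3 to 115 in the others. Nfkb1 was at 4737 normalized counts, against 13182 to 14527 in the others. Tnfaip3 was at 66.5 normalized counts, against 328 to 399 in the others. In culture baseline replicate 1, Egr3 was at 7.22 normalized counts, against 0 in the others. In blood day 1 replicate 2, Nr4a2 was at 0 normalized counts, against 24.8 to 142 in the others. Klf4 was at 0 normalized counts, against 43.4 to 387 in the others. In blood day 1 replicate 6, Csrnp1 was at 2324 normalized counts, against 139 to 353 in the others. Nfkb2 was at 4428 normalized counts, against 1068 to 1541 in the others. In blood day 5 replicate 5, Dusp1 was at 12216 normalized counts, against 28832 to 47072 in the others. In blood day 5 replicate 6, Egr2 was at 0 normalized counts, against 44.2 to 119 in the others. In brain replicate 4, Btg2 was at 5010.4 normalized counts, against 8455 to 11434 in the others.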

How the results depend on the processing

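Counts of the 36 genes called higher or lower stayed within 1.5 times of the reported value under the 14 alternatives and without each library in turn, except between the blood days. There 3 genes were higher, against 1 in edgeR, 8 in DESeq2 and 1 in batch 2 alone, and 1 to 5 without a library (1 without blood day 1 replicate 5 or blood day 5 replicate 6, and 5 without blood day 1 replicate 6). All genes called between the blood days numbered 16, against 5 in edgeR, 133 in DESeq2, 10 with only both groups, 7 in batch 1, 80 in batch 2, 9 with the closest libraries averaged and 6 to 21 without a library. Against the culture baseline, blood day 1 had 4905 genes called and 2677 in batch 2 alone. Every alternative kept 11 of 22 calls of blood day 1 against the baseline, 18 of 27 of blood day 5 against the baseline, 1 of 3 of blood day 5 against day 1, 10 of 18 of brain against blood and 23 of 29 of brain against the baseline. Klf6 on blood day 1 against the baseline turned to -0.12 in batch 2 alone (adjusted p = 0.917), and Nr4a3 turned to 6.24 on blood day 5 (0.0124) and to 5.55 in brain (0.0107) against the baseline in batch 2 alone. The cause was not tested, beyond fewer libraries in the batch fits. Whether replicate numbers pair the samples could not be settled. Deviations of same-numbered libraries from their group and batch mean correlated at -0.10 to 0.19 (33 pairs, median 0.014). Those of others correlated at -0.17 to 0.12 (66 pairs, median -0.0081). Each group holds at most 3 libraries per batch, so these values cannot exclude a pairing. With the number as a replicate block, 10 genes were called between the blood days, and Junb missed the threshold (adjusted p = 0.0553). Depth limits genes of few reads, such as Egr3, whose zeros do not show that a gene is absent.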
